A study of Mus musculus with 8 samples.

Results

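The 35 genes described here encode enzymes of cholesterol synthesis (19 genes), enzymes of fatty acid synthesis, elongation and desaturation (11 genes), and the proteins that regulate both (5 genes). They were chosen by name from what is known of the pathways, and all 35 were found among the 11783 genes of the deposited expression table. RNA-seq was done on granulosa cells, the somatic cells that surround the oocyte, from ovaries of C57BL/6 mice. There were 4 libraries from postnatal day 1 (PND1) and 4 from postnatal day 4 (PND4), with no treatment or genetic change named in the labels. In these days primordial follicles form and the first ones start to grow, the event that the study's title refers to. The labels do not say how granulosa cells were separated from other ovarian cells, or whether replicates are different mice, different litters or pools. P-values therefore measure only the spread among libraries, which may be technical.

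Cells build cholesterol from acetyl-CoA through mevalonate, isoprenoid phosphates, squalene and a series of sterols. They build fatty acids from the same acetyl-CoA through malonyl-CoA, and then lengthen and desaturate them. Both branches are controlled by the transcription factors SREBP1 (gene Srebf1), mainly for fatty acid genes, and SREBP2 (gene Srebf2), mainly for cholesterol genes. When sterols are scarce, the escort protein SCAP carries the SREBPs to the Golgi, where they are cut and released. When sterols are plentiful, INSIG proteins hold SCAP in the endoplasmic reticulum. In the ovary, granulosa cells supply the oocyte, which makes little cholesterol itself, with sterols, and the steroid hormones of later follicles are made from cholesterol.

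The regulation named above acts on promoters, so the DNA just before the start of some members is shown here. RefSeq promoter windows (GRCm38.p6) were matched for 29 of the 35 members, and the 6 without an entry were Fdps, Fdft1, Sqle, Scd1, Scd2 and Fads1. The 250 bases before each start were searched on both strands for CCAAT, the letters bound by NF-Y, a factor that works beside the SREBPs. CCAAT was present for 15 of 16 matched cholesterol genes, 4 of 5 regulators and 4 of 8 matched fatty acid genes. Of the 38 windows 23 hold bases of GENCODE exons and 4 lie wholly in them, among them the windows with the CCAAT of Dhcr7, Idi1 and Tm7sf2. Outside annotated exons CCAAT was present for 10 cholesterol genes, 4 regulators and 3 fatty acid genes. Some genes have several starts, and counted by window it was in 15 of 19 cholesterol windows, 5 of 10 regulator windows and 4 of 9 fatty acid windows. Among the 10193 windows of all genes in the expression table, 35.2% held it, exonic bases included. The sterol element letters TCACNCCAC were in the Hmgcs1 window alone among the members, and in 0.981% of the windows of genes in the table. Only these letters were searched for, so the count says nothing of other forms of the sterol element. TGACC and AGTAACC spaced by any 3 bases, a form of the element bound by liver X receptors, was in the windows of Srebf1 and Fasn, and in 0.0392% of the windows of genes in the table. This pattern leaves only those 3 bases free, so its counts say nothing of other forms of the element. The choice of its letters is not recorded, so the matches in Srebf1 and Fasn are not the outcome of an open search. GGGCGG, the GC box bound by Sp1, was in 15 of 19 cholesterol, 7 of 10 regulator and 5 of 9 fatty acid windows, against 59.9% of the windows of genes in the table. Overlaps between matches were found for CCAAT on both strands in Fasn and for CCAAT with GGGCGG in Elovl1. These matches are letters in a window and say nothing of binding in these cells.

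The promoters that carry these letters are printed 5′ to 3′ on the strand of the gene. Capitals mark CCAAT on either strand (ATTGG where it is on the opposite strand), TCACNCCAC, and the spaced TGACC and AGTAACC. Hmgcs1 (chr13:119690101-119690350, plus strand), Mvd (chr8:122443423-122443672, minus) and Sc5d (chr9:42264301-42264550, minus) stand for early and late cholesterol enzymes. Insig1 (chr5:28071162-28071362, plus, the 201 bases before the first annotated exon) and Srebf1 (chr11:60210472-60210721, minus, the most downstream of its windows) stand for the regulators, and Fasn (chr11:120824548-120824797, minus) for the fatty acid branch.
Hmgcs1: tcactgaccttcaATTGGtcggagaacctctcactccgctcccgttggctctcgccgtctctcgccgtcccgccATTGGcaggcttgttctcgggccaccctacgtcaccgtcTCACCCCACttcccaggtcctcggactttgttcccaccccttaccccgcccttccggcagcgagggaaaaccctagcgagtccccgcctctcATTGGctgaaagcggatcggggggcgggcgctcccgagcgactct
Mvd: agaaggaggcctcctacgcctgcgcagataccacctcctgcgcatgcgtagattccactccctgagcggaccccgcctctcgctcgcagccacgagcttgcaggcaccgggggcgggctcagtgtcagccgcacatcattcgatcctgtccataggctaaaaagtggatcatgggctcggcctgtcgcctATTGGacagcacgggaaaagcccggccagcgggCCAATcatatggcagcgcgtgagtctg
Sc5d: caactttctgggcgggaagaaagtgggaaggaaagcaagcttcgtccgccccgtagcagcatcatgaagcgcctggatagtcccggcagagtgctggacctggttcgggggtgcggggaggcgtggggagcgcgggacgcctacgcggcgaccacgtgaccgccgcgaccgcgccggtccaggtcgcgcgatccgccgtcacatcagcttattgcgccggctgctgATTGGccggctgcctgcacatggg
Insig1: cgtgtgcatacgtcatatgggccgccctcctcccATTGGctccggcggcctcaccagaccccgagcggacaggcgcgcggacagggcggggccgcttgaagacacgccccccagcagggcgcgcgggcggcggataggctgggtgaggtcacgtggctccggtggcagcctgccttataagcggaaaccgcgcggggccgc
Srebf1: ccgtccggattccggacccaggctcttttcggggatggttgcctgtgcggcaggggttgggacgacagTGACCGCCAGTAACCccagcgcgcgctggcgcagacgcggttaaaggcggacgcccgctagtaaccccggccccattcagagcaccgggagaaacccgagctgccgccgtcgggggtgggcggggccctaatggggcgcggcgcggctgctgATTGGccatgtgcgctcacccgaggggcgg
Fasn: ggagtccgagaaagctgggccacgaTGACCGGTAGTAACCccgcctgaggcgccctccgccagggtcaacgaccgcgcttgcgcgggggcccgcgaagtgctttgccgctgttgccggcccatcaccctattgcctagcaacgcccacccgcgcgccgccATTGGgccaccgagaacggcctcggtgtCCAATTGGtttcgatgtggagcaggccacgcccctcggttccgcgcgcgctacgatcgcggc

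Expression is given as FPKM, fragment counts scaled to transcript length and library total, which allows levels of different genes to be compared per length. Summed over the table, FPKM ran from 443333 to 505035 in the 8 libraries, and the number of reads behind a value is unknown. From 222 to 1234 genes in a library had an exact 0, most in PND1 replicate 1 (1234) and PND4 replicate 1 (1097), and these 2 libraries also correlated least with the others (median Spearman's rho 0.863 and 0.870 across genes, against 0.904 to 0.923). An exact 0 can be a failed estimate rather than an absence of transcript. The granulosa transcription factor Foxl2 was present in every library, at 10.5 to 26.2 FPKM, and keratin 18 (Krt18) at 378 to 552 FPKM. All 5 surface epithelium markers were listed, from Lgr5 at 0.720 to 4.26 FPKM up to Krt19 at 44.5 to 198 FPKM. Of 5 endothelial markers none was in the table. Of 6 immune markers 3 were listed, Cd68 at 0 to 7.22, Csf1r at 0.282 to 4.015 and C1qb at 0 to 4.47 FPKM, while Ptprc, Adgre1 and C1qa were not listed. Of 11 oocyte markers 9 were listed, and of the 8 tested 4 had higher and 4 lower values at PND4. Zp3 ranged from 0.0804 to 12.4 FPKM in PND1 and 10.95 to 61.3 in PND4 libraries, whereas Figla ranged from 1.87 to 7.99 and 0 to 1.25, and Dazl from 1.55 to 4.71 and 0 to 2.17.

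The comparison of PND1 with PND4 asks which of these pathway genes differ between granulosa cells of these ages. No member passed the test, which was limma on log2(FPKM + 1) with p-values adjusted over all genes tested. The count was 0 of the 34 members tested, beside 1 of 10756 genes in all (0.00930%). The smallest p was that of Fads2 (ENSMUSG00000024665), the delta-6 desaturase that starts the synthesis of long polyunsaturated fatty acids, with a log2 difference of -0.61 (95% interval -1.04 to -0.18, adjusted p = 0.740). Its unadjusted p from limma was 0.00913. No other member had an unadjusted p under 0.05, and 1.84% of all genes were lower at PND4 by that rule. No member was among the genes with an unadjusted p under 0.05 and higher PND4 values (4.06% of all genes, 5.90% for both directions together). No member had PND4 libraries that all lay below or all lay above the PND1 libraries, as 1.08% and 3.16% of all genes did. Tm7sf2 was not tested because it did not reach 1 FPKM in 4 libraries.

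Read by branch, most differences were small, and the share of genes with a negative sign was 10 of 11 in one branch and 10 of 18 in the other, a contrast that was not tested. The higher share was that of the fatty acid branch, with a median log2 difference of -0.18. The cholesterol branch had 8 genes above 0 and a median of -0.11. Among all tested genes 39.7% were below 0 and the median was 0.078. These counts depended on single libraries and on scaling. The cholesterol count was 14 of 18 without PND1 replicate 1, with 9 of 11 for fatty acid genes, and 12 of 18 with either other scaling. Without PND4 replicate 1 it was 7 of 18, and the fatty acid count was 7 of 11 (median -0.053). Without both libraries numbered 1, a setting chosen after seeing the data, the fatty acid count was 6 of 11 (median -0.099). The fatty acid median was also closer to 0 without PND1 replicate 3 (-0.068). The cholesterol median turned positive without PND4 replicate 1 (0.080) or PND1 replicate 4 (0.00099), and was -0.015 without PND4 replicate 2. With median-of-ratios or upper-quartile scaling it was -0.18 or -0.19.

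**Figure D1:**
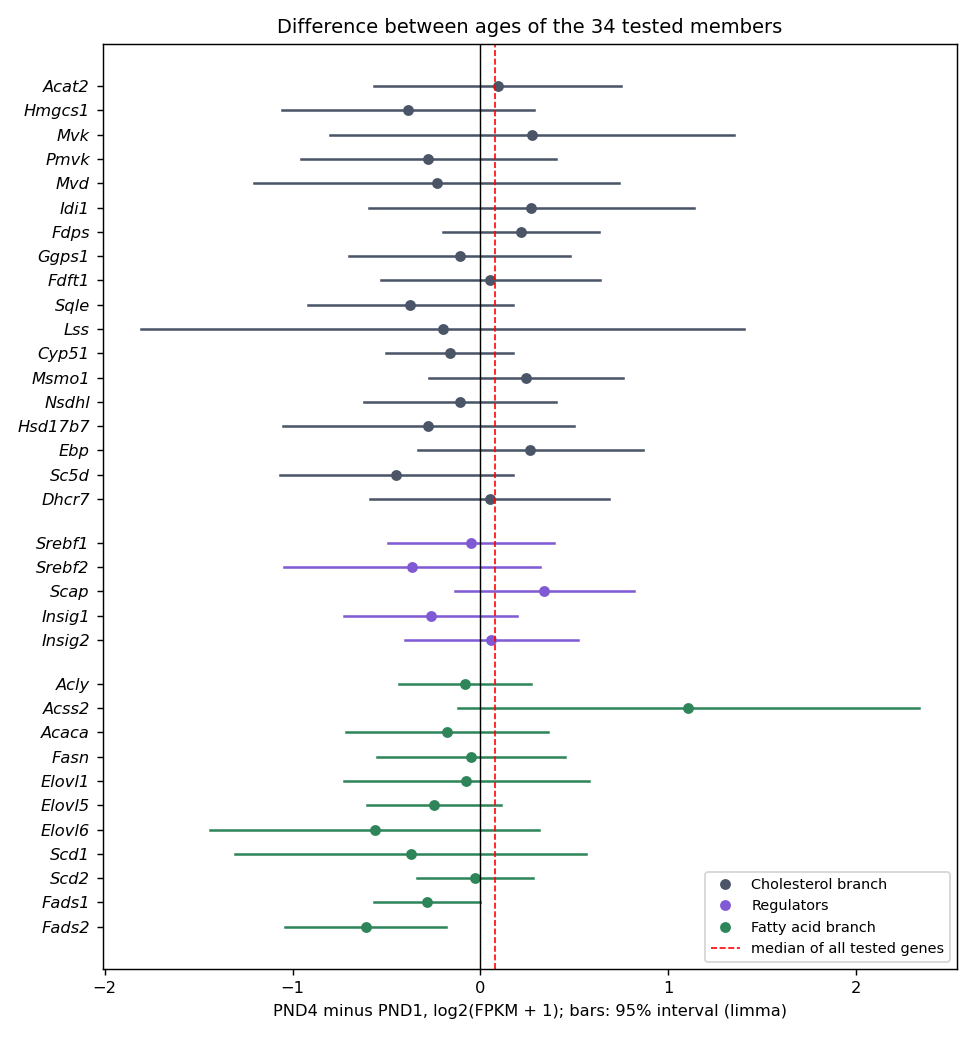
Difference between ages of each tested member, PND4 minus PND1 on the log2(FPKM + 1) scale, with 95% intervals from limma (8 libraries), grouped by branch. Fads2, at -0.61, is the only member whose interval does not reach 0, and the dashed line is the median of all tested genes (0.078).

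The first steps of the cholesterol branch make mevalonate. Acat2, the cytosolic thiolase, averaged 9.32 ± 3.09 FPKM in PND1 and 9.97 ± 2.88 in PND4 libraries (SD, n = 4). Hmgcs1, the HMG-CoA synthase, was at 24.2, 21.1, 27.0 and 24.6 FPKM in PND1 replicates 1 to 4 and at 9.01, 16, 29.8 and 25.1 in PND4 replicates 1 to 4. The PND1 libraries lay close together, while PND4 replicates 1 and 2 lay below all of them and replicates 3 and 4 within or above their range. The log2 difference of -0.39 had a 95% interval from -1.06 to 0.28, and was -0.072 without PND4 replicate 1 and -0.61 without PND4 replicate 3. Hmgcs1 shares 557 exonic bases with Gm48342 on the opposite strand, at 4.64 to 8.12 FPKM. The mevalonate kinases and decarboxylase that follow had lower levels. Mvk stood at 6.31 ± 3.95 and 6.82 ± 2.89 FPKM, Pmvk at 8.79 ± 2.54 and 7.21 ± 3.02, and Mvd at 5.20 ± 2.35 and 4.48 ± 3.11. Mvk was lowest in PND1 replicate 1, at 1.12 FPKM, against 4.602 to 11.1 in the other libraries.

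Isoprenoid phosphates come next. Idi1, the isopentenyl-diphosphate isomerase, was at 2.77, 10.3, 12.9 and 13.6 FPKM on PND1 and 9.84, 11.6, 12.7 and 8.76 on PND4, so that PND1 replicate 1 stood apart from the other 7 libraries. Fdps, which makes farnesyl diphosphate, was at 25.0, 21.9, 37.0 and 32.1 FPKM on PND1 and 33.5, 30.6, 40.9 and 29.0 on PND4. The 2 ranges overlapped, with a log2 difference of 0.22 (95% interval -0.20 to 0.63). Leaving out PND1 replicate 2 gave 0.098, leaving out PND1 replicate 3 gave 0.34, and leaving out PND4 replicate 3 gave 0.12. Fdps shares 1124 of its 4208 exonic bases with Gm43738 on the same strand, which was at 0 to 3.67 FPKM. Ggps1, which diverts farnesyl diphosphate to geranylgeranyl diphosphate for protein prenylation, was at 17.7, 17.7, 13.9 and 14.8 FPKM on PND1 and 7.84, 15.8, 18.2 and 20.1 on PND4. Its PND4 libraries thus held both the lowest and the highest values. The difference was -0.11 (95% interval -0.70 to 0.48) and turned to 0.17 without PND4 replicate 1.

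Squalene and the first sterols are made by Fdft1 (squalene synthase), Sqle (squalene epoxidase, a rate-limiting enzyme) and Lss (lanosterol synthase). Fdft1 stood at 8.29 ± 2.46 FPKM on PND1 and 8.50 ± 1.71 on PND4, and Sqle at 13.8 ± 1.90 and 10.8 ± 3.23. Lss had the lowest level of the tested cholesterol genes and was listed at 0 in PND1 replicate 3 and in PND4 replicates 1 and 2, with 1.31 to 5.22 FPKM in the others. Its interval reached from -1.81 to 1.401. Fdft1 shares 774 exonic bases with Ctsb, a cathepsin gene on the opposite strand at 44.0 to 76.2 FPKM. The sources used here do not give a strand setting, and without one the reads of that stretch could belong to either gene.

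Among the enzymes that turn lanosterol into cholesterol, Cyp51, the lanosterol demethylase, was the most abundant, at a mean close to that of Fdps. It was at 30.4, 33.4, 33.6 and 34.3 FPKM on PND1 and at 23.0, 30.2, 29.9 and 35.3 on PND4. The PND1 libraries differed by less than 4 FPKM, PND4 replicates 1 to 3 lay below them and PND4 replicate 4 above. The log2 difference was -0.16 (95% interval -0.50 to 0.17), with -0.053 when PND4 replicate 1 was left out and -0.25 when PND4 replicate 4 was. Msmo1, the sterol C4 methyl oxidase, was at 40.0, 17.5, 31.7 and 22.5 FPKM on PND1 and 31.8, 26.8, 37.4 and 31.8 on PND4, and the PND4 libraries lay within the wide PND1 range. Sc5d, the lathosterol desaturase, was at 10.5, 10, 10.96 and 9.37 FPKM on PND1 and 4.30, 6.96, 7.05 and 12.4 on PND4. PND4 replicates 1 to 3 lay below every PND1 library and PND4 replicate 4 above every one. The difference of -0.45 (95% interval -1.07 to 0.17, unadjusted p = 0.140, adjusted p = 0.812) did not pass. Leaving out PND4 replicate 1 gave -0.24 and leaving out PND4 replicate 4 gave -0.68, and neither passed.

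The remaining sterol enzymes had moderate levels. Nsdhl, which removes the C4 carboxyl group, averaged 11.1 ± 2.08 FPKM in PND1 and 10.2 ± 2.34 in PND4 libraries, and Hsd17b7, the 3-keto reductase of the same step, averaged 11.4 ± 3.32 and 9.78 ± 4.199. Ebp, the sterol isomerase, stood at 6.12 ± 1.27 and 7.70 ± 2.49 FPKM, and Dhcr7, the last enzyme of one route to cholesterol, at 5.42 ± 1.01 and 5.78 ± 1.79. Tm7sf2, a sterol C14 reductase, was listed at 0 in replicates 1 to 3 of both ages and at 7.47 FPKM in PND1 replicate 4 and 10.1 in PND4 replicate 4. It shares 532 exonic bases with Vps51 on the same strand, so its reads are uncertain as well.

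**Figure D2:**
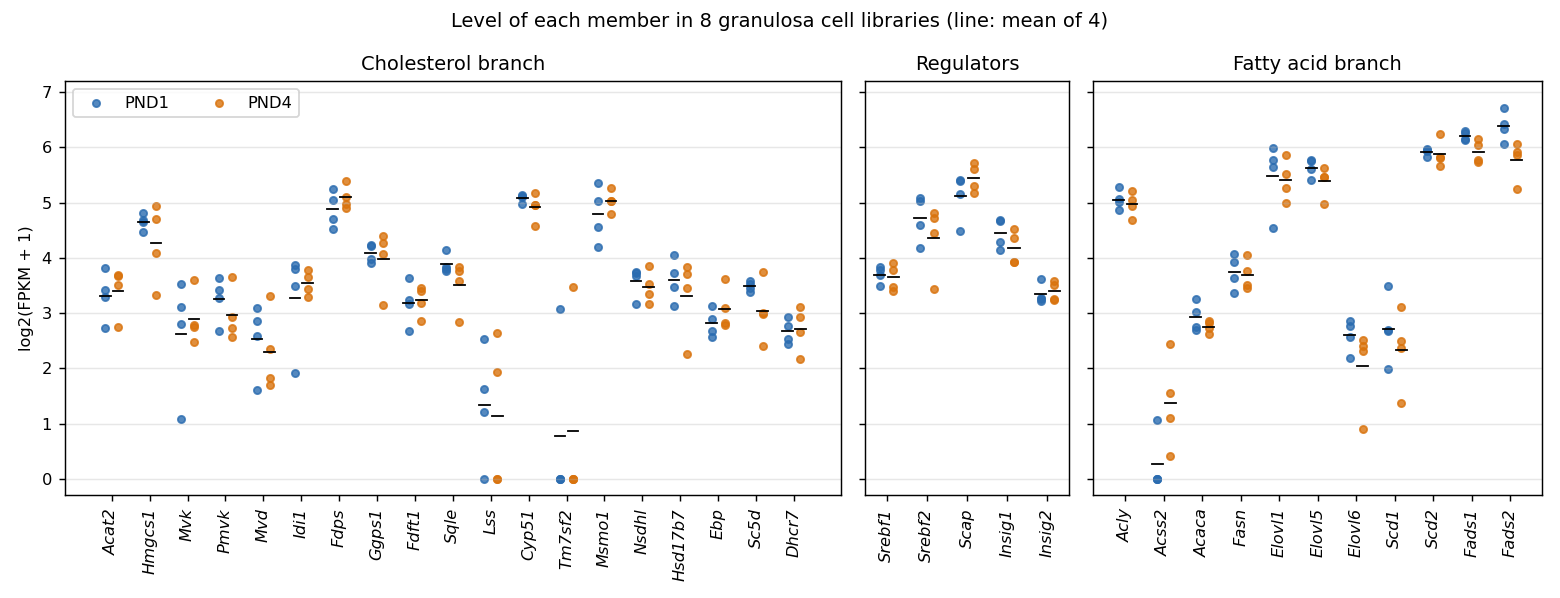
Level of each member in the 8 libraries as log2(FPKM + 1), with PND1 in blue, PND4 in orange and the mean of 4 libraries as a line. Cyp51, Fdps and Msmo1 stand highest in the cholesterol branch, Fads2, Fads1 and Scd2 in the fatty acid branch, and Tm7sf2, Lss and Acss2 are listed at 0 in 3 or more libraries.

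Of the regulators, the escort protein gene Scap had the highest level. It was at 21.5, 41.6, 40.8 and 34.8 FPKM on PND1 and 51.5, 35.2, 48.0 and 38.5 on PND4. PND1 replicate 1 was the lowest library and PND4 replicates 1 and 3 the highest, with overlap among the others. The log2 difference was 0.34 (95% interval -0.14 to 0.82, unadjusted p = 0.145, adjusted p = 0.812), and 0.13 without PND1 replicate 1. Scap shares 985 exonic bases with 5830462I19Rik on the opposite strand, which was at 2.51 to 7.99 FPKM.

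Both SREBP genes were expressed, Srebf2 above Srebf1 in 8 of 8 libraries, though by little in PND4 replicate 1. Srebf2 was at 31.6, 23.2, 33.0 and 17.1 FPKM on PND1 and 9.89, 25.4, 27.2 and 20.8 on PND4. The ages overlapped and PND4 replicate 1 was lowest, with a log2 difference of -0.37 (95% interval -1.05 to 0.32) that was -0.061 without that library and -0.24 without PND1 replicate 3. Srebf1 was at 11.9, 13.3, 12.8 and 10.2 FPKM on PND1 and 9.60, 10.1, 14.1 and 12.8 on PND4, and the ages overlapped (log2 difference -0.051, 95% interval -0.49 to 0.39, from -0.14 without PND4 replicate 3 to 0.029 without PND4 replicate 1). A gene total does not separate the transcripts of its different starts, among them the one whose promoter is printed above.

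The 2 INSIG genes differed in level. Insig1, itself a target of the SREBPs, was at 24.7, 18.6, 24.6 and 16.6 FPKM on PND1 and 14.1, 14.2, 22.1 and 19.5 on PND4. Insig2 was at 8.50, 8.30, 11.2 and 8.68 FPKM on PND1 and 10.4, 8.57, 8.41 and 11.02 on PND4. Insig1 exceeded Insig2 in 8 of 8 libraries, by 1.37-fold to 2.91-fold (exact two-sided paired permutation p = 0.00781, adjusted over 3 pairs p = 0.0117). The unadjusted p is the smallest that this test can give with 8 libraries. The ratio of Insig1 to Insig2 was 2.31 ± 0.423 at PND1 and 1.86 ± 0.543 at PND4 (SD, n = 4). The ratios overlapped between ages (exact two-sided permutation p = 0.229, adjusted over 3 pairs p = 0.343).

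The fatty acid branch starts from acetyl-CoA. Acly, which makes it from citrate, stood at 32.4 ± 4.09 FPKM on PND1 and 30.6 ± 4.67 on PND4. Acss2, which makes it from acetate, was far lower and was the only gene of this branch with a positive difference. Its PND1 values were 0 in replicates 1 to 3 and 1.11 FPKM in replicate 4, and it was at 4.44, 1.94, 0.325 and 1.14 FPKM at PND4. The log2 difference was 1.11 (95% interval -0.12 to 2.33, unadjusted p = 0.0723, adjusted p = 0.805). Its size depended on the pseudocount, at 3.00 with 0.1 and 0.37 with 5 in place of 1. Acss2 shares 395 exonic bases with Gss, a glutathione synthetase gene on the opposite strand at 6.64 to 19.01 FPKM. Acaca, the acetyl-CoA carboxylase, stood at 6.73 ± 1.42 and 5.77 ± 0.489 FPKM, and Fasn, the fatty acid synthase, at 12.6 ± 2.89 and 12.1 ± 2.55. Neither differed by more than the spread between libraries, and the sign of Fasn turned when any 1 of PND1 replicates 1 and 3 and PND4 replicates 1 and 4 was left out.

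Elongases add carbons to the chains that Fasn makes or the diet supplies. Elovl5, which elongates polyunsaturated chains, was at 41.6, 53.5, 47.5 and 52.8 FPKM on PND1 and 30.6, 43.1, 43.3 and 48.3 on PND4. The ages overlapped, with PND4 replicate 1 lowest and a log2 difference of -0.25 (95% interval -0.60 to 0.11) that was -0.11 without that library. Elovl1, which acts on long saturated chains, was at 22.1, 53.6, 49.0 and 62.3 FPKM on PND1 and 37.3, 45.1, 56.9 and 30.7 on PND4. Its lowest and highest libraries were both from PND1 (log2 difference -0.076, 95% interval -0.73 to 0.58, from -0.39 without PND1 replicate 1 to 0.091 without PND1 replicate 4). Elovl6, which lengthens palmitate to stearate, was low, at 5.15 ± 1.18 FPKM on PND1 and 3.47 ± 1.76 on PND4, with 0.872 FPKM in PND4 replicate 1.

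The desaturase genes Fads2, Fads1 and Scd2 had the highest mean levels of all members. Fads2 and Fads1, which catalyse the delta-6 and delta-5 steps of polyunsaturated fatty acid synthesis, lie near each other on chromosome 19 (GRCm38), Fads2 from 10062765 to 10101746 on the minus strand and Fads1 from 10182888 to 10196877 on the plus strand. Fads2 was at 65.4, 79.5, 104 and 84.6 FPKM on PND1 and 37.0, 56.9, 65.6 and 59.5 on PND4. PND1 replicates 2 to 4 lay above every PND4 library, and PND1 replicate 1 lay just below PND4 replicate 3. On the log2(FPKM + 1) scale the PND4 level was 0.655 times the PND1 level, and with any 1 library left out the log2 difference stayed between -0.72 and -0.44. That difference did not pass adjustment over all genes.

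Fads1 was at 77.1, 70.1, 75.6 and 68.8 FPKM on PND1 and 52.0, 65.0, 69.9 and 53.5 on PND4. PND1 replicates 1 to 3 lay above every PND4 library, and PND1 replicate 4 below PND4 replicate 3 only. The log2 difference was -0.28 (95% interval -0.57 to 0.00056, unadjusted p = 0.0504, adjusted p = 0.805). The ratio of Fads2 to Fads1 was 1.149 ± 0.225 at PND1 and 0.909 ± 0.165 at PND4 (SD, n = 4), with overlap (exact two-sided permutation p = 0.171, adjusted over 3 pairs p = 0.343).

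Scd1 and Scd2 encode stearoyl-CoA desaturases, which make oleate, and lie on the same chromosome, Scd1 from 44394455 to 44407879 on the minus strand and Scd2 from 44293674 to 44306864 on the plus strand. Scd2 was at 61.3, 55.4, 60.7 and 60.5 FPKM on PND1 and 49.9, 54.7, 75.1 and 55.8 on PND4. Scd1 was at 10.2, 2.96, 5.46 and 5.36 FPKM on PND1 and 1.61, 4.61, 7.67 and 4.15 on PND4. Scd2 was the form that prevailed, above Scd1 in 8 of 8 libraries by 5.99-fold to 31.1-fold (exact two-sided paired permutation p = 0.00781, adjusted over 3 pairs p = 0.0117). Here too the unadjusted p is the smallest that this test can give with 8 libraries. The 2 genes are close paralogs, so part of their reads can be assigned to either. The Scd2 to Scd1 ratio overlapped between ages (exact two-sided permutation p = 0.40). Neither gene's mean differed between ages by more than the spread between libraries, with log2 differences of -0.030 for Scd2 (95% interval -0.34 to 0.28) and -0.37 for Scd1 (95% interval -1.31 to 0.56). For Scd1 leaving out PND4 replicate 1 or PND1 replicate 1 gave -0.053 or -0.11, leaving out PND4 replicate 3 or PND1 replicate 2 gave -0.63 or -0.61, and for Scd2 it ran from -0.15 without PND4 replicate 3 to 0.042 without PND4 replicate 1.

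**Figure D3:**
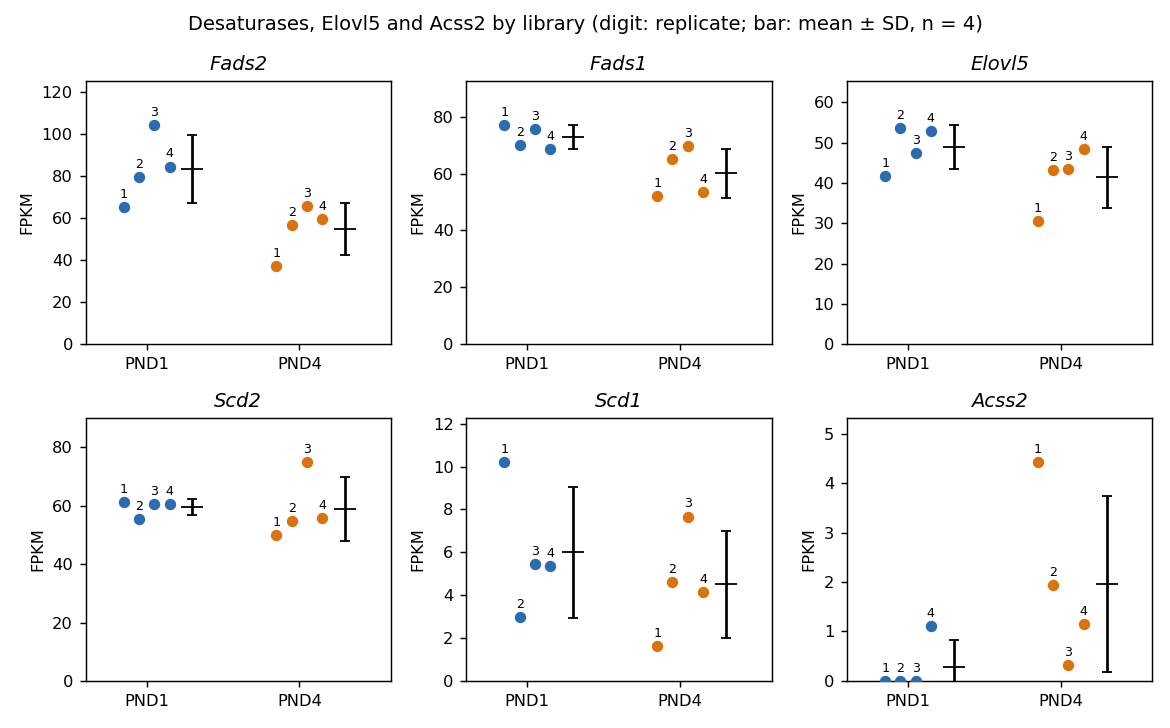
FPKM of the 4 desaturases, Elovl5 and Acss2 in each library (digits are replicate numbers), with the mean ± SD of 4 libraries per age. For Fads2 only PND1 replicate 1 (65.4) falls within the range of the PND4 libraries, and Scd2 runs from 49.9 to 75.1 while Scd1 stays at or below 10.2.

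Set side by side, the fatty acid branch stood above the cholesterol branch. The 11 fatty acid genes summed to 375 ± 31.5 FPKM on PND1 and 316 ± 51.9 on PND4, and the 19 cholesterol genes to 240 ± 23.8 and 235 ± 39.0 (SD, n = 4). By the mean of log2(FPKM + 1), cholesterol genes lay below fatty acid genes by 0.93, 0.67, 0.75 and 0.70 in PND1 replicates 1 to 4 and by 0.80, 0.87, 0.56 and 0.58 in PND4 replicates 1 to 4. The mean gap of -0.76 ± 0.11 at PND1 and -0.70 ± 0.15 at PND4 differed by 0.064, less than the spread within an age. That difference turned to -0.112 with a pseudocount of 0.1. In rank, Fads2 lay at or above 93.0% of all listed genes, Scd2 above 91.7%, Scap above 86.6%, Cyp51 above 83.1% and Insig1 above 72.9%, while Mvd (33.9%), Elovl6 (30.7%) and Lss (13.7%) were in the lower part of the table.

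Single libraries stood low or high, some of them across both branches. PND4 replicate 1 was the lowest library for 7 of 18 tested cholesterol genes, 3 of 5 regulators and 7 of 11 fatty acid genes, or 50.0% of the 34, against 24.3% of all tested genes. In that library the median deviation from a gene's mean over 8 libraries was -0.38 for cholesterol, -0.27 for regulator and -0.33 for fatty acid genes, against -0.11 for all tested genes. For cholesterol genes PND4 replicate 3 was at the other end, highest for 7 of 18 with a median deviation of 0.29, against 0.11 for all genes. For fatty acid genes it was highest for 1 of 11, with a median deviation of 0.083, and for regulators the median was 0.24. It was the highest library for 16.5% of all tested genes. PND1 replicate 3 was above the gene mean for 10 of 11 fatty acid genes, 5 of 5 regulators and 14 of 18 cholesterol genes, as it was for 6165 of all 10756 tested genes. PND1 replicate 4 was above it for 14 of 18 cholesterol genes and 8 of 11 fatty acid genes but 0 of 5 regulators, and for 6752 of all tested genes. The same libraries differed in other ways. Oocyte markers summed to 187 FPKM in PND4 replicate 3 (11.7 to 53.8 elsewhere), and surface epithelium markers to 369 FPKM there, against 87.3 to 307. Granulosa markers summed to 598 FPKM in PND4 replicate 1 and 573 in PND1 replicate 2, against 679 to 762 in the other libraries. Most of each sum was Krt18, at 379 FPKM in PND4 replicate 1 and 378 in PND1 replicate 2, against 507 to 552 elsewhere. Other granulosa markers went both ways. Foxl2 was highest in PND4 replicate 1 (26.2 FPKM) and Kitl in PND1 replicate 2 (90.85 FPKM). Wt1 was lowest in PND1 replicate 2 (19.88 FPKM) and next lowest in PND4 replicate 1. Surface epithelium markers also had their lowest sums in those libraries. They summed to 87.3 FPKM in PND1 replicate 2 and 159 in PND4 replicate 1, against 230 to 369 elsewhere. Genes with the mt- prefix took 26.6% to 30.6% of summed FPKM on PND1 and 29.4% in PND4 replicate 1, against 22.4% to 23.4% in PND4 replicates 2 to 4. The part of these differences in the levels of the pathway genes was not tested, and in bulk samples fewer cells of a type and less RNA per cell cannot be told apart.

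**Figure D4:**
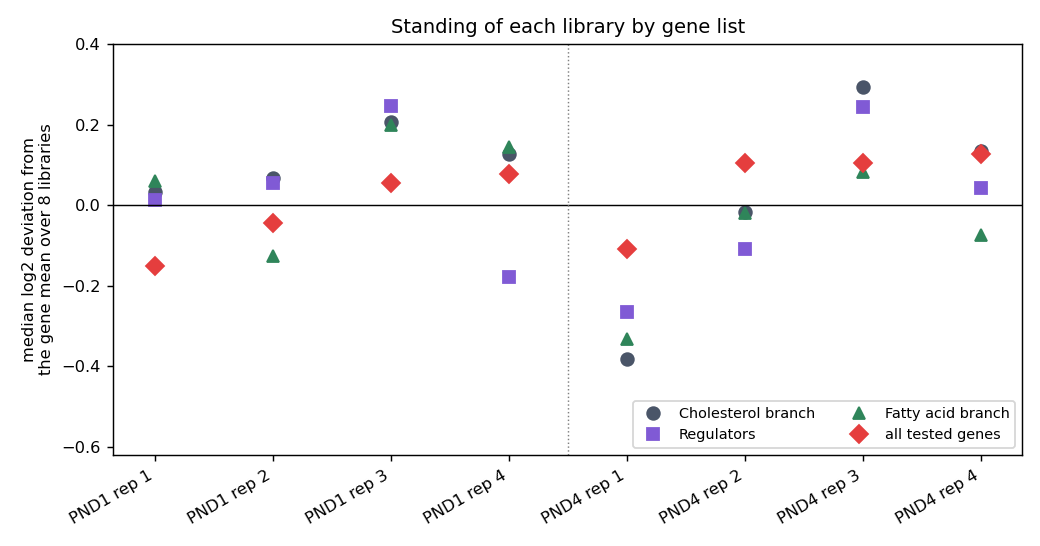
Median over the tested genes of each list of the log2 deviation from the gene's own mean over 8 libraries, by library, with all 10756 tested genes as red diamonds. The 3 lists of pathway genes lie lowest in PND4 replicate 1 (-0.38, -0.27 and -0.33), and cholesterol genes highest in PND4 replicate 3 (0.29).

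Other genes of lipid metabolism, from 4 lists drawn up by function, also had 0 called. In the main fit all 4 lists had a median difference above 0, as had all tested genes, while the median of the members was -0.11. Without PND4 replicate 1 the median of the members was 0.011. The 4 lists were not examined under the alternatives, so this contrast may depend on single libraries or scaling. Of 9 further sterol synthesis and carrier genes tested, 4 had negative and 5 positive differences, with a median of 0.034. The most abundant were Nus1, a subunit of the dolichol-making enzyme, at 17.9 ± 1.91 and 21.1 ± 3.28 FPKM, and Acat1, the mitochondrial thiolase, at 19.9 ± 2.42 and 19.1 ± 3.19. Of 15 genes of sterol uptake, transport, storage and efflux, 8 were higher and 7 lower, with a median of 0.039. The lipoprotein receptor Scarb1 stood at 40.05 ± 7.80 and 34.1 ± 5.97 FPKM, and Soat1, which esterifies cholesterol for storage, at 38.6 ± 3.44 and 33.8 ± 5.85. Vldlr, a lipoprotein receptor named after its values were seen, was at 0.569 to 1.78 FPKM on PND1 and 2.89 to 6.08 on PND4, with no overlap (log2 difference 1.32, 95% interval 0.49 to 2.15, limma adjusted p = 0.740).

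Of 21 further genes of fatty acid and lipid synthesis, 11 were higher and 10 lower, with a median of 0.040. Tecr, the reductase that completes each elongation cycle, averaged 115 ± 13.0 and 94.9 ± 10.02 FPKM, or -0.28 on the log2 scale (limma, adjusted p = 0.805). Me1, the malic enzyme that supplies NADPH, stood at 85.3 ± 28.4 and 97.1 ± 16.4 FPKM. Of 9 genes of SREBP processing and turnover, 7 were higher and 2 lower, with a median of 0.14. Both of the most abundant, Pgrmc1 (162 ± 8.73 and 155 ± 21.6 FPKM) and Ubxn1 (98.1 ± 12.8 and 91.3 ± 11.1), were the 2 with negative differences.

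Markers of other cell types were set beside these values. Stroma and fibroblast markers summed to 99.5 to 112 FPKM on PND1 and 128 to 161 on PND4, with all 8 tested members higher at PND4 and 0 past the test. Erythroid markers summed to 17.1 to 48.9 FPKM on PND1 and 0.269 to 11.4 on PND4. Steroidogenic markers were low, at 4.71 to 12.6 and 2.33 to 6.26 FPKM, and Cyp17a1 and Cyp11a1, which use cholesterol and its products for hormone synthesis, were not among the listed genes. Of 4 adipocyte markers only Lpl was listed, at 5.84 to 16.7 FPKM. Their part in the values of the pathway genes was not tested.

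In the authors' deposited table of their own comparison, 0 of the 35 members had a q-value under 0.05, as did 0% of all genes. Fads2, Elovl5, Cyp51 and Sqle, 4 of the 35 members, had in the authors' deposited table a p-value under 0.05. In either direction 772 of all 11783 genes had one. All 4 members were in the direction of lower PND4 values, as were 2.81% of all genes by the same rule. For Fads2 the authors' deposited table gives a PND1 to PND4 ratio of 1.68 with p = 0.000881 and q = 0.440, and for Elovl5 a ratio of 1.26 with p = 0.0228 and q = 0.742. The sources used here do not name its test.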

How the data were processed

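RNA was extracted from isolated granulosa cells with a micro-scale column kit, per the labels' protocols, and the submitters' processing notes name Trim Galore, HISAT2 and the build GRCm38. The authors deposited FPKM values for 8 libraries, per the file headers. The sources used here do not give the program, annotation, strand setting or gene filter behind them. The authors also deposited a table of their own comparison holding p-values and q-values beside a PND1 over PND4 ratio and its log2, which was only quoted. No 2 libraries shared most of their values. Low values of 2467 genes with 1 annotated transcript lay within 0.1 of whole multiples of a read in at most 29.6% of cases, where 20% is chance for any single step, so read depth was not recovered and no counting intervals are given.

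Genes that reached 1 FPKM in 4 or more libraries (10756) were tested with limma 3.58.1 in R 4.3.3 on log2(FPKM + 1), with a mean-dependent prior variance, as PND4 minus PND1. Adjustment was by Benjamini-Hochberg over all of them (threshold 0.05). Folds on this scale understate changes of low genes. The fit was tested on simulated data. Ratios of 3 paralog pairs were compared by exact permutation with scipy 1.17.1. Positions and exon overlaps came from GENCODE M21 (GRCm38). Members and lists were chosen with earlier results of these data known. Values in every library were given for the 5 most abundant members of each branch, all regulators, 3 paralog pairs and the 5 members with the smallest p. Members named beyond these rules, and the promoters shown, were chosen after their values were seen. Alternatives were 2 other scalings, other filters and pseudocounts (0.1 and 5), the replicate number as a block, leaving out each library, and, chosen after seeing the data, leaving out both libraries numbered 1.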

Additional observations from a re-analysis of the deposited data

Results flagged for a closer look

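In 6 of 70 groups of 4 libraries, 1 library lay far from the other 3. Its gap to its neighbour, as a share of the group's range, was above Dixon's 95% critical value. Chance gives about 1 in 20 for continuous, normally spread values. That rate does not hold for Tm7sf2 and Acss2 below, where 0 in the other 3 libraries makes the gap the whole range whatever the value. The count of 6 is therefore not to be set against it. Tm7sf2 was at 7.47 FPKM in PND1 replicate 4 and at 10.05 FPKM in PND4 replicate 4, with 0 listed in the other 3 libraries of each age. Acss2 was at 1.106 FPKM in PND1 replicate 4 and listed at 0 in the other 3. Nsdhl was at 8.01 FPKM in PND1 replicate 2, against 11.7 to 12.4 in the others. Insig2 was at 11.23 FPKM in PND1 replicate 3, against 8.30 to 8.68 in the others. Scd2 was at 55.41 FPKM in PND1 replicate 2, against 60.5 to 61.3 in the others.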

How the results depend on the processing

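Under 16 alternatives the number of members called stayed at 0 and that of all genes at 1, and the smallest adjusted p of any member in any of them was 0.508. The signs of small differences were less stable. With median-of-ratios scaling 3 members changed sign, Fdft1 (-0.0187), Dhcr7 (-0.0194) and Insig2 (-0.0118), and with upper-quartile scaling the same members did (-0.0261, -0.0261 and -0.020). These scalings put the median of all genes at 0.0085 and 0.0010 (from 0.078) and the cholesterol, regulator and fatty acid medians at -0.183, -0.124 and -0.243 or -0.191, -0.132 and -0.251, with 12 of 18, 4 of 5 and 10 of 11 genes below 0 under both. With a filter at 5 FPKM the cholesterol median was -0.0303, and with a pseudocount of 5 the medians of the cholesterol and fatty acid genes were -0.0548 and -0.117. The difference between ages in the gap between branches, 0.064, was -0.112 with a pseudocount of 0.1. Deviations of same-numbered libraries were weakly correlated (from -0.00882 to 0.124, best with its own number for replicate 4 only). These correlations cannot show whether the libraries were paired. With the replicate number as a block 0 members were called, 1 gene in all, and the fatty acid median was -0.177. Without both libraries numbered 1 the fatty acid count was 6, and the signs of Acat2 (-0.186), Mvk (-0.202), Mvd (0.0714), Idi1 (-0.147), Ggps1 (0.212), Lss (0.274), Srebf1 (0.0244), Srebf2 (0.0404), Insig2 (-0.00799), Acly (0.0193), Fasn (0.0863), Scd1 (0.208) and Scd2 (0.0571) turned. With single libraries left out, the ranges that spanned 0 were -0.101 to 0.311 for Acat2, -0.241 to 0.575 for Mvk, -0.18 to 0.47 for Idi1, -0.254 to 0.165 for Ggps1, -0.113 to 0.205 for Fdft1, -0.70 to 0.197 for Lss, -0.448 to 0.0728 for Hsd17b7, -0.0813 to 0.233 for Dhcr7, -0.141 to 0.0285 for Srebf1, -0.00577 to 0.15 for Insig2, -0.16 to 0.0139 for Acly, -0.181 to 0.0554 for Fasn, -0.392 to 0.0912 for Elovl1 and -0.151 to 0.0424 for Scd2. Fads2 (-0.721 to -0.438) and Fads1 (-0.358 to -0.218) kept their sign there, the regulator median ran from -0.141 to 0.0219 and the gap between branches from 0.00927 to 0.119. The cause of these turns was not tested. An edgeR quasi-likelihood fit, planned only for the case of counts, was not run, since the values are not counts. All these values are log2 differences, PND4 minus PND1. Read depth is unknown, so what it limits cannot be given.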
